A study of Mus musculus with 4 samples.

Results

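Transcription factors that steer activated T cells toward terminal effector or memory fates were measured as transcripts in mouse effector Th1 and Th17 cells that had been sorted on CD30, a TNF receptor family member. The members were Zeb2, Prdm1, Bhlhe40, Bcl6, Tox, Tox2, Id2 and Id3. They were chosen by name, and all 18 probe sets annotated to these 8 genes were taken from 45037 probe sets, which cover 18193 named genes. Splenic CD4 T cells, CD44low by the labels, were cultured for 6 days. Th1 cultures held 30 U/ml of IL-2 culture supernatant, 100 U/ml of IL-12 and 1 µg/ml of an antibody to IL-4. Th17 cultures held IL-6, IL-1β and IL-23, each at 10 ng/ml, with antibodies to IL-4 and IFN-γ, each at 10 µg/ml. By the methods, the T cells carried a transgenic receptor for an ovalbumin peptide (DO11.10 or OTII) and were stimulated with that peptide on irradiated splenocytes that had been depleted of T cells. The labels give neither the strain, the age nor the transgene of the arrayed cells. CD30low and CD30high cells were then sorted, and RNA of Th1 CD30low, Th1 CD30high, Th17 CD30low and Th17 CD30high cells was hybridized to 1 array each. Without replicates, differences carry neither a p-value nor a replicate error.

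Many of these factors work as opposed pairs. BLIMP-1, encoded by Prdm1, and BCL6 repress each other's genes, and favor effector and follicular or memory-like states, respectively. ID2 and ID3 have no DNA-binding region of their own. They hold E proteins, the products of Tcf3, Tcf4 and Tcf12, away from the E-box, a short DNA site written CANNTG. ID2 is associated with effector cells and ID3 with memory precursors. ZEB2, a zinc finger repressor of terminally differentiated CD8 T cells, binds E-boxes of the CACCTG kind, and BHLHE40, which sustains cytokine production by helper T cells, binds CACGTG. TOX and TOX2 are HMG-box proteins known from T cell development, follicular helper cells and exhausted T cells.

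Because several members bind the E-box or keep others from it, the 250 bases before the annotated start of 4 members are shown: Zeb2 and Bcl6, brighter in CD30high than in CD30low Th17 cells, and Id3 and Prdm1, dimmer in Th17 than in Th1 cells. The sequences are from RefSeq (GRCm38.p6), read 5′ to 3′ on the strand of the gene, with every CANNTG in capitals. Where the table held several starts, the most upstream was taken. The windows lie at chr2:45117443-45117692 (minus strand), chr16:23988853-23989102 (minus strand), chr4:136143572-136143821 (plus strand) and chr10:44458749-44458998 (minus strand).
Zeb2: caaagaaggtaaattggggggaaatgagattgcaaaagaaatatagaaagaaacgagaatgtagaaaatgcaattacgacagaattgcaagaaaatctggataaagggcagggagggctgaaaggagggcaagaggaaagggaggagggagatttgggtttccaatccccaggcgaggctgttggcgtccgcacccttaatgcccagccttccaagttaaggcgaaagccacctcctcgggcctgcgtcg
Bcl6: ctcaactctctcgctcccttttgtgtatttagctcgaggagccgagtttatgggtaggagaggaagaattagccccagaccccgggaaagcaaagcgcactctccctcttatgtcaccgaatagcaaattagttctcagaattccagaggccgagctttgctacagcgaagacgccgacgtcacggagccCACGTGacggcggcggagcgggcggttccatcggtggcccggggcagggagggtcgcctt
Id3: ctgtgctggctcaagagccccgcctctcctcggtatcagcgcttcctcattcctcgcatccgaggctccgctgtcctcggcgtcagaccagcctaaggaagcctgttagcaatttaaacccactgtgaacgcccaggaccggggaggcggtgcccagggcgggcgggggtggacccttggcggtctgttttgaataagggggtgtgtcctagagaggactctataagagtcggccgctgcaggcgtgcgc
Prdm1: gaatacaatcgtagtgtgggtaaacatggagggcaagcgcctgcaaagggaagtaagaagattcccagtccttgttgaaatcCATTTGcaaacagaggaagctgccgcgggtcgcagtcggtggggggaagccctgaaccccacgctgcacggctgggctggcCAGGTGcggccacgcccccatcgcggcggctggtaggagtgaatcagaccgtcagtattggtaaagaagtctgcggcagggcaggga
The Bcl6 window held 1 match to CANNTG, which was a CACGTG. The Prdm1 window held 2 matches, of which 1 was CAGGTG, the other strand of CACCTG. The windows of Zeb2 and Id3 held 0 matches. Over 32817 windows of 250 bases, 66.2% held CANNTG, 6.02% held CACGTG and 17.2% held CACCTG or CAGGTG. Both strands were searched, and every CACGTG or CACCTG is also a CANNTG. The start used for Prdm1, the only one listed, lies within the annotated span of the gene. That used for Bcl6 lies a few bases inside the span of its gene, so the Bcl6 window overlaps it slightly. Of the 8 members, 6 had an entry in this table, all but Tox and Bhlhe40. A match is a description of letters and not of binding.

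A call required a ratio of 2-fold or more and a signal of 300, the limit named in the study, on the brighter of both arrays. For ratios, dimmer signals were raised to 100, so a fold against such a signal is a lower bound. The brightest probe set, by its mean over the arrays, stood for a gene. Ratios of 2 probe sets of a gene differed with an SD per probe set, on the log2 scale, of 0.24 for CD30 in Th1 cells and 0.20 in Th17 cells. For the lineages this SD was 0.30 among CD30low and 0.33 among CD30high cells. It was taken from the 2 brightest probe sets of genes where both reached 300, so it may be too small for dimmer signals. It compares probe sets on the same arrays and holds no spread between cultures or animals. Signals of different genes come from different probes, so their levels were not ranked. Sums over marker genes are given to set arrays, not genes, side by side.

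**Figure D1:**
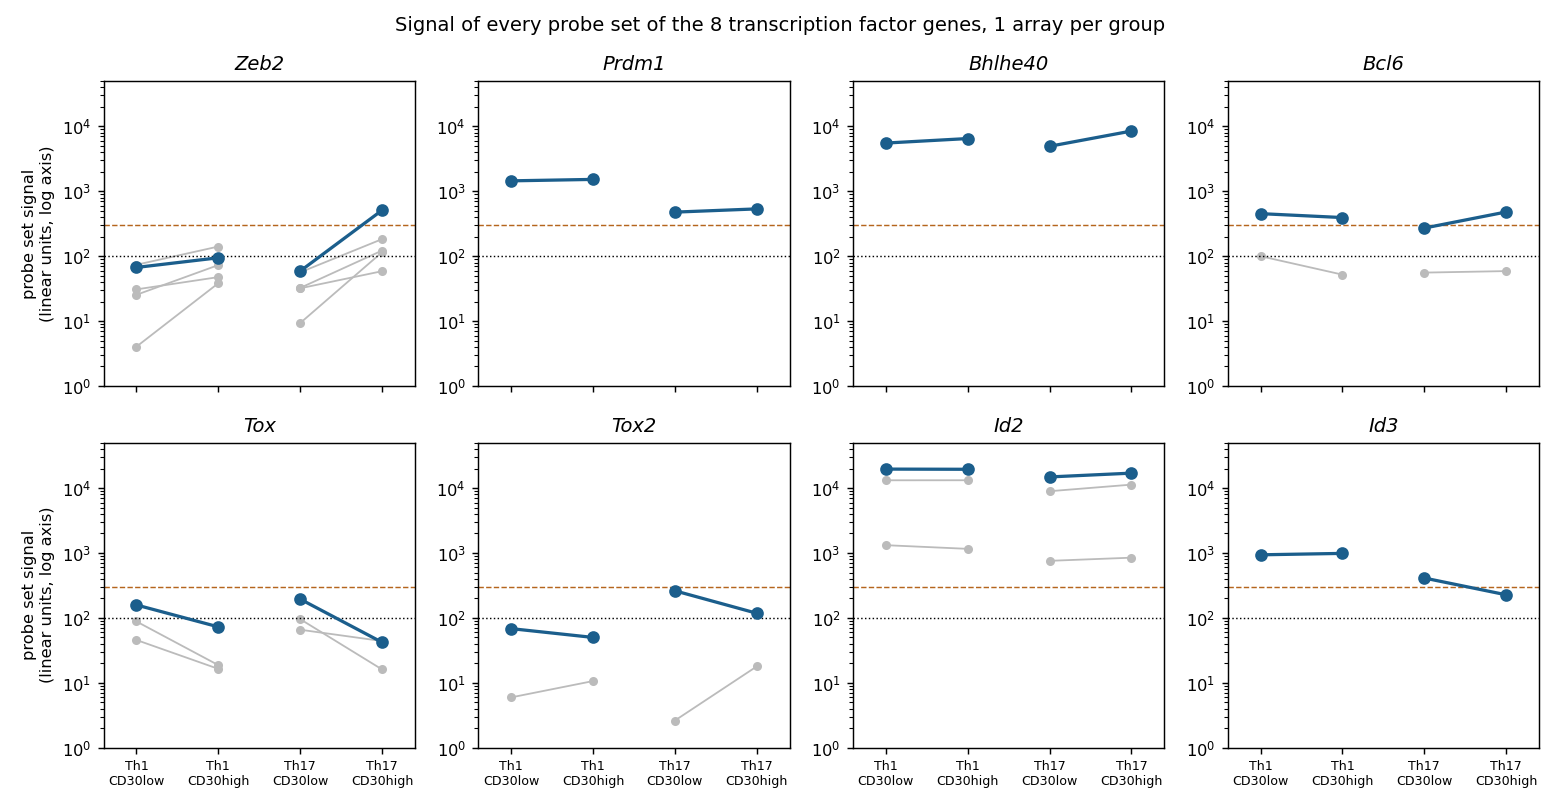
Signals of all 18 probe sets of the 8 genes (y axis, linear units on a log axis) on the 4 arrays (x axis), 1 array per group; blue is the probe set that stands for the gene, grey are its other probe sets, lines join the CD30 sorts of a lineage, the dotted line is at 100 and the dashed line at 300. Zeb2 exceeds 300 only in CD30high Th17 cells (511), Prdm1 and Id3 are lower in both Th17 arrays, and no probe set of Tox or Tox2 reaches 300.

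The T cell genes, Tbx21 and Il17a followed the labels, whereas Rora did not among CD30low cells and the transcript of CD30 was dim. The T cell genes Cd3e and Cd4 were at 1465 or more and at 582 or more on all arrays. Tbx21, the lineage factor of Th1 cells, was at 2190 and 2352 on the Th1 arrays (CD30low first) and at 281 and 243 on the Th17 arrays. Of 5 Th1 genes, 4 passed the 2-fold rule between the lineages in each sort, all lower in Th17 cells. Il17a was below 100 in both Th1 arrays and at 1398 and 14443 in CD30low and CD30high Th17 cells. The Th17 gene Rora had 963 and 1159 in Th1 cells and 951 and 2482 in Th17 cells, CD30low first. Ccr6, also a Th17 gene, had 49.2 and 172 in Th1 cells and 136 and 333 in Th17 cells. The gene of CD30 itself, Tnfrsf8, had 13.3 (CD30low) and 51.1 (CD30high) in Th1 cells, and 34.9 (CD30low) and 132 (CD30high) in Th17 cells. Its CD30high arrays were the brighter ones, but in Th1 cells it stayed below 100, so the sort was not checked there by this transcript. The labels describe the starting cells as CD62Llow for CD30low and CD62Lhi for CD30high samples, whereas by the methods all were naive and high in CD62L. By the labels, starting population and CD30 sort cannot be told apart. Eif2s3y, a gene of the Y chromosome, had 1784 and 1640 on the Th1 and 1.41 and 9.39 on the Th17 arrays. Xist, the RNA of the inactive X chromosome, was present on all 4, with 14620 and 16222 on the Th1 and 22350 and 22613 on the Th17 arrays. Lineage and sex-linked material therefore cannot be told apart either. In bulk RNA, fewer cells that express a gene and less RNA per cell also cannot be told apart.

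Zeb2 was the only member to pass the 2-fold rule between CD30 sorts. The gene lies at chr2:44983512-45117442. Its signals were 67.1 (CD30low) and 94.6 (CD30high) for Th1 cells, and 59.0 (CD30low) and 511 (CD30high) for Th17 cells. The CD30high Th17 array thus stood apart from the 3 others, none of which reached 100. In Th17 cells Zeb2 was at least 5.11-fold higher in CD30high than in CD30low cells, above 99.5% of the 7786 genes compared. Zeb2 was among these genes only through its CD30high signal, and its CD30low signal was raised to 100. Reaching the signal limit thus already fixed a ratio past 2-fold, so the filter partly set this rank. Zeb2 was also at least 5.11-fold higher in CD30high Th17 than in CD30high Th1 cells. Its other 4 probe sets were dim, and reached 183, 122, 115 and 58.8 in CD30high Th17 cells, against 56.5, 32.5, 9.34 and 32.1 in CD30low Th17 cells. All 5 probe sets were brighter in the CD30high array of both lineages. In Th1 cells, however, only 1 of the 5 reached 100, with 73.9 in CD30low and 141 in CD30high cells. The median over all probe sets of the array was also higher on the CD30high arrays. It was 73.1 (CD30low) and 86.0 (CD30high) in Th1 cells, and 62.0 and 64.3 in Th17 cells. A shared direction of dim probe sets is therefore weak, above all in Th1 cells. Averaged over its 5 probe sets, Zeb2 no longer passed the rule (log2 ratio 0.59 in Th17 cells). The call therefore rests on a single probe set, while the direction was shared by all of them.

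Other cell types transcribe Zeb2 as well, and their markers were set beside it. Of 8 macrophage and dendritic cell markers, 1 reached 100 in CD30low and 3 in CD30high Th17 cells, with summed signals of 450 and 628. The 3 in CD30high cells were Adgre1 (64.8 and 158), Csf1r (30.3 and 130) and Cd14 (26.9 and 104), all brighter there. Lyz2 went the other way, with 231 and 88.5. Itgax, Flt3, Xcr1 and Siglech were below 100 in both. None of the 8 reached 100 in Th1 cells, where their sums were 340 and 448. Of 6 neutrophil markers, 4 reached 100 in CD30low and 3 in CD30high Th17 cells, and their sum was lower in CD30high cells (8554 and 2201). Mast cell and basophil markers had sums of 613 and 804 in Th17 cells, with the basophil protease gene Mcpt8 at 85.7 and 470.2 and Cpa3 at 301 and 227. Fibroblast and stromal markers had sums of 1054 and 7774, with Lum at 768 and 6697 and Dcn at 127 and 967; Col1a1, Col1a2, Col3a1, Pdgfra and Pdgfrb were below 100 in both. In B cell markers 0 of 5 reached 100 in CD30low and 2 of 5 in CD30high Th17 cells, with sums of 226 and 435. Of 5 natural killer and CD8 markers, 1 reached 100 on each Th17 array, Cd8b1, at 390 and 350. Their sums were 606 and 451 in Th17 cells, and 966 and 728 in Th1 cells, where Cd8b1 had 703 and 541. Cd8a was below 100 on all arrays. The part of these cells in the Zeb2 signal was not tested.

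Prdm1 and Bcl6, the opposed repressor genes, followed different lines. Prdm1 (chr10:44437174-44528558) had 1 probe set, with signals of 1449 (CD30low) and 1525 (CD30high) for Th1 cells, and 478 (CD30low) and 536 (CD30high) for Th17 cells. Both Th1 arrays were above both Th17 arrays, and the CD30 sorts lay close together in each lineage. Prdm1 was 3.03-fold lower in Th17 than in Th1 cells among CD30low cells and 2.85-fold lower among CD30high cells. Between the CD30 sorts its log2 ratio was 0.07 in Th1 and 0.17 in Th17 cells, within the SD between probe sets.

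Bcl6 (chr16:23965050-23988866) had signals of 453 (CD30low) and 394 (CD30high) for Th1 cells, and 271 (CD30low) and 480.4 (CD30high) for Th17 cells. The Th1 and Th17 arrays overlapped, with CD30low Th17 cells lowest and CD30high Th17 cells highest. In CD30high Th17 cells it was 1.77-fold higher than in CD30low Th17 cells, under the 2-fold limit. In Th1 cells the CD30high array was the lower one (log2 ratio -0.20), within the SD between probe sets. The difference of these ratios was 1.02 on the log2 scale, just past the 2-fold limit. A second probe set was dim, with 100.0, 52.0, 55.9 and 59.0 in the same order of arrays, and averaged over both probe sets Bcl6 stayed below 300.

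Bhlhe40 (chr6:108660629-108666925) had 1 probe set, at 5539 (CD30low) and 6499 (CD30high) for Th1 cells, and 4941 (CD30low) and 8482 (CD30high) for Th17 cells. The CD30high array was the brighter one in each lineage. The log2 ratio was 0.23 in Th1 cells, within the SD between probe sets, and 0.78 in Th17 cells (1.72-fold), which was above 93.8% of the genes compared but under the 2-fold limit. Between the lineages Bhlhe40 was 1.12-fold lower in Th17 cells among CD30low and 1.31-fold higher among CD30high cells, so neither passed.

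The genes of the ID proteins differed from each other. Id2 (chr12:25093799-25096092) had 3 probe sets. The brightest was at 19627 (CD30low) and 19499 (CD30high) for Th1 cells, and 14866 (CD30low) and 17011 (CD30high) for Th17 cells. It varied little, with a log2 ratio between CD30 sorts of -0.01 in Th1 and 0.19 in Th17 cells, both within the SD between probe sets. All 3 Id2 probe sets were dimmer in Th17 than in Th1 cells in both sorts, at 1.32-fold among CD30low and 1.15-fold among CD30high cells for the brightest.

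Id3 (chr4:136143822-136145392) had 1 probe set, with signals of 938 (CD30low) and 987 (CD30high) for Th1 cells, and 412 (CD30low) and 227 (CD30high) for Th17 cells. The Th1 arrays lay above the Th17 arrays, and CD30high Th17 cells had the lowest signal. Id3 was 2.28-fold lower in Th17 than in Th1 cells among CD30low cells and 4.35-fold lower among CD30high cells. In Th17 cells it was 1.81-fold lower in CD30high than in CD30low cells, which is under the limit, and in Th1 cells the CD30 sorts had a log2 ratio of 0.07.

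Tox and Tox2 were dim, and neither reached 300 on any array, so neither could be called. The brightest Tox probe set (chr4:6686353-6991557 for the gene) was at 158 (CD30low) and 72.8 (CD30high) for Th1 cells, and 195 (CD30low) and 42.1 (CD30high) for Th17 cells. Only the CD30low arrays lay above 100, and the CD30high array was at least 1.58-fold dimmer in Th1 and at least 1.95-fold dimmer in Th17 cells. The other 2 probe sets never reached 100, and all 3 were dimmer in the CD30high array of both lineages. Tox2 (chr2:163203058-163324172) was at 68.4 (CD30low) and 50.05 (CD30high) for Th1 cells, and 262 (CD30low) and 118 (CD30high) for Th17 cells. It was above 100 only in Th17 cells, with a 2.22-fold lower signal in the CD30high array, and its other probe set was below 18 on all arrays.

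The members were then counted against all genes. In Th1 cells 0 of the 5 members with a signal of at least 300 passed the rule between the CD30 sorts, where 1.28% of 7813 genes did, 0.794% higher and 0.486% lower. At a 1.5-fold limit the count was still 0, against 7.62% of all genes. In Th17 cells 1 of 6 passed, Zeb2, against 7.6% of 7786 genes, 3.94% higher and 3.66% lower. At 1.5-fold 4 of 6 passed, with Zeb2, Bhlhe40 and Bcl6 higher and Id3 lower, against 18.6% of all genes. Zeb2, at 5.11-fold or more, lay well inside the 2-fold limit, and nearest outside it among the members at 300 were Id3 (1.81-fold) and Bcl6 (1.77-fold). Tox (at least 1.95-fold) and Tox2 (2.22-fold), both lower, could not be called at their signals. The CD30 difference in Th17 minus that in Th1 cells passed for 2 of 6 members, Zeb2 and Bcl6, both higher, where 6.59% of 8227 genes passed, and 3.18% were higher. Between the lineages 2 of 5 members passed among CD30low cells, Prdm1 and Id3, both lower in Th17 cells, against 9.35% of 7857 genes, 3.53% higher and 5.83% lower. Among CD30high cells 3 of 6 passed, the same 2 lower and Zeb2 higher, against 11.8% of 7979 genes, 4.98% higher and 6.86% lower. Zeb2 entered each count of 6 members only through its CD30high Th17 signal. Its signals on the other arrays lay below the level to which dim signals were raised. Reaching 300 therefore already fixed its call in these counts, and its passing is not a separate result. The median log2 ratio of the 8 members was 0.00 in Th1 and 0.18 in Th17 cells for CD30, and -0.28 among CD30low and 0.12 among CD30high cells for the lineage. Over all genes compared it was -0.03, 0.01, 0.00 and 0.04 in the same order. The comparisons share arrays, with the CD30low Th17 array in both the Th17 comparison and that of the lineages.

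**Figure D2:**
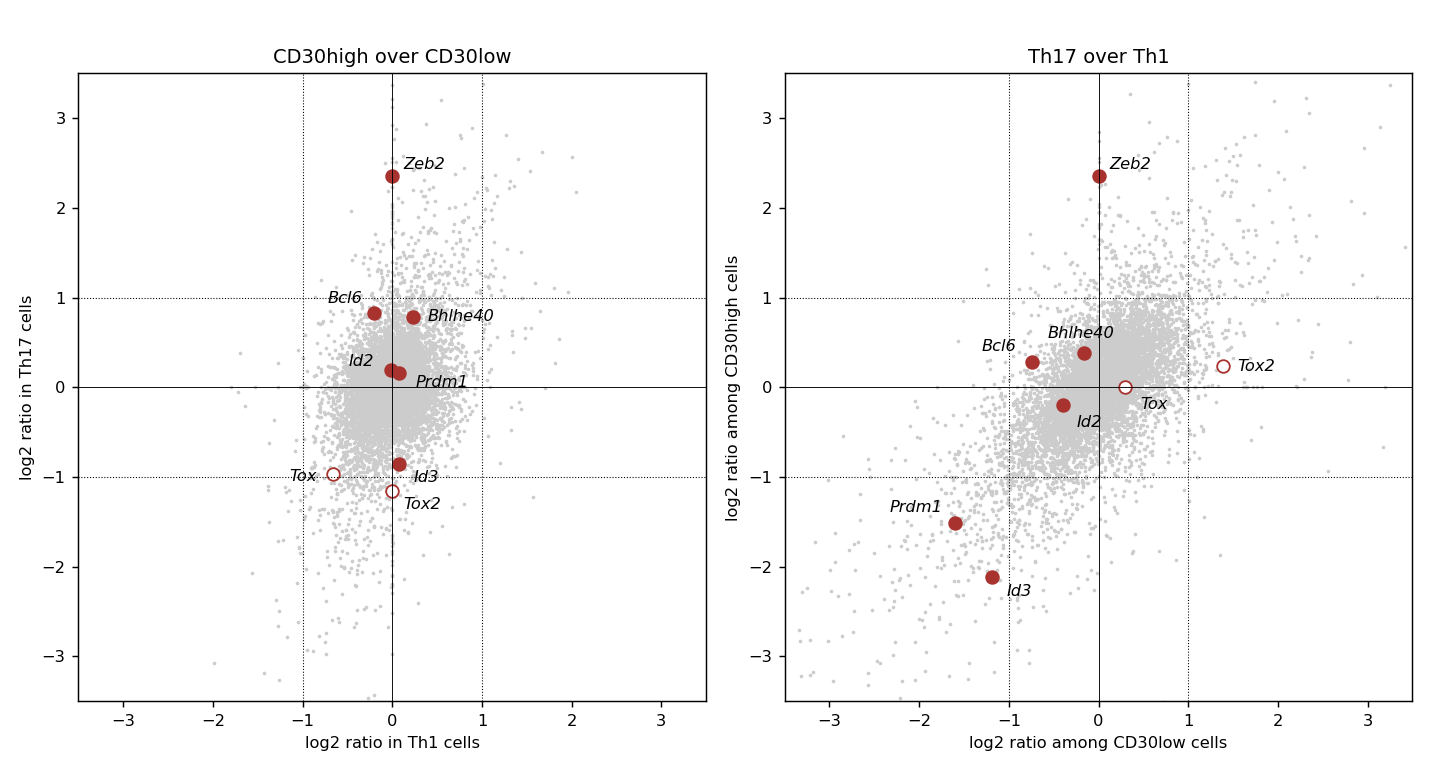
Log2 ratios of signals for CD30high over CD30low cells (left, Th1 on the x axis and Th17 on the y axis) and for Th17 over Th1 cells (right, CD30low on the x axis and CD30high on the y axis), 1 array per group; grey points are genes at 300 or more in either comparison of the panel, red points are members, open where the member stayed under 300, and dotted lines mark 2-fold. Zeb2 lies past 2-fold on the y axis of both panels, Prdm1 and Id3 past 2-fold on both axes at right, and 11 and 55 genes lie outside the axes of the left and right panel.

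Genes of the same pathways were read from lists of related factors and targets. Counts are of list members at 300 or more in the pair of arrays, and medians of those at 100 or more. Of all genes at 300, 0.794% were higher and 0.486% lower in CD30high Th1 cells (median log2 ratio -0.03). In CD30high Th17 cells 3.94% were higher and 3.66% lower (median 0.01). Between the lineages 3.53% were higher and 5.83% lower in Th17 cells among CD30low cells (median 0.00). Among CD30high cells these were 4.98% and 6.86% (median 0.04). The lists are small, and their counts were not tested against these shares. E protein genes, whose products the ID proteins bind, had no member past the rule between the CD30 sorts. Tcf4 had 371 and 501 in Th1 and 224 and 417 in Th17 cells (CD30low before CD30high, as in all pairs of values from here on). Tcf3 was at 1202 and 1259 in Th1 and at 1311 and 1024 in Th17 cells, and Tcf12 at 3944 and 3813 in Th1 and at 3135 and 2569 in Th17 cells. With the ID genes, 0 of 5 members at 300 passed in either lineage (median log2 ratio 0.07 in Th1 and -0.05 in Th17 cells). Id1 stayed under 300 and Id4 under 100 on all arrays.

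Of the family relatives of the 8 genes, 0 of 5 at 300 passed in any comparison (median log2 ratio for CD30 -0.15 in Th1 and 0.11 in Th17 cells). Zeb1, the paralog of Zeb2, had 1553 and 1402 in Th1 and 1549 and 2527 in Th17 cells. Its brightest array was thus also that of CD30high Th17 cells, without reaching 2-fold. Tox4, a ubiquitous relative of Tox, was between 1498 and 1727. Bhlhe41, Tox3 and Bcl6b stayed below 100 on all arrays.

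Among 12 corepressor genes at 300, 0 were higher and 1 was lower in CD30high cells of each lineage (median log2 ratio 0.13 in Th1 and -0.04 in Th17 cells). The lower gene was Tle4, a Groucho-type corepressor, with 839 and 373 in Th1 cells (2.25-fold) and 452 and 174 in Th17 cells (2.61-fold). Tle4 was also 2.15-fold lower in CD30high Th17 than in CD30high Th1 cells. Between the lineages, Mta3, a NuRD subunit that works with BCL6 in B cells, was 2.15-fold lower in Th17 cells among CD30low and 2.09-fold lower among CD30high cells. Another Mta3 probe set gave 1.59-fold and 1.19-fold, which is under the limit.

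Follicular helper genes, which BCL6 and TOX2 are known to favor, had 0 higher and 1 lower of 7 at 300 in Th1 cells (median log2 ratio -0.03). In Th17 cells 1 was higher and 3 were lower of 10 (median log2 ratio 0.01). Il6st, the signalling chain of the IL-6 receptor, was lower in both, with 777 and 386 in Th1 cells (2.01-fold) and 361 and 62.8 in Th17 cells (at least 3.61-fold). In Th17 cells Slamf6 (4.69-fold) and Sh2d1a (2.07-fold), the genes of a SLAM receptor and of its adaptor, were lower and Cd200 (2.34-fold) was higher. Between the lineages 4 were higher and 2 lower of 11 in Th17 cells among CD30low, and 5 higher and 4 lower of 11 among CD30high cells. Il21 was 30.2-fold higher among CD30low cells, and Cd200 was 4.95-fold higher and Slamf6 4.8-fold lower among CD30high cells. Cxcr5, the homing receptor of follicular helper cells, was below 100 on all arrays.

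Among terminal effector genes, which ZEB2 and BLIMP-1 accompany in CD8 T cells, 0 were higher and 3 lower of 4 at 300 in CD30high Th17 cells (median log2 ratio of the 8 genes at 100 -0.24). The lower ones were Gzmb (5.6-fold) and Gzma (3.09-fold), which encode granzymes, and the natural killer receptor gene Klrd1 (2.05-fold). In Th1 cells 0 were higher and 1 lower of 8 at 300, the chemokine gene Ccl5 (2.43-fold; median log2 ratio -0.10). Between the lineages 6 of 8 were lower in Th17 cells among CD30low and 7 of 8 among CD30high cells, with 0 higher (median log2 ratio -2.96 and -3.07). Klrd1 was 25.2-fold lower in Th17 cells among CD30high cells, and Klrk1 15.1-fold and Fasl 13.7-fold lower among CD30low cells.

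Memory and quiescence genes had 1 higher and 0 lower of 10 at 300 in Th1 cells (median log2 ratio -0.35) and 1 higher and 3 lower of 10 in Th17 cells (median log2 ratio -0.43). The higher gene was Myb, the gene of a transcription factor of self-renewing T cells, with 1536 and 3696 in Th1 cells (2.41-fold) and 1269 and 8923 in Th17 cells (7.03-fold). Lower in CD30high Th17 cells were Klf2 (22.8-fold), the costimulatory receptor gene Cd27 (7.59-fold) and Foxo1 (2.86-fold). The other 2 Myb probe sets at 300 gave the same direction in both lineages. Between the lineages 1 was higher and 1 lower of 10 in Th17 cells among CD30low, and 2 higher and 4 lower of 10 among CD30high cells. Il7r, the receptor for the survival cytokine IL-7, was 3.06-fold lower among CD30low cells, where the homing receptor gene Ccr7 was 3.03-fold higher. Ccr7 was also 2.18-fold and Myb 2.41-fold higher among CD30high cells. For this comparison the other 2 Myb probe sets gave 1.17-fold, which is under the limit, and 3.58-fold. Among CD30high cells Klf2 was 18.3-fold and Cd27 4.91-fold lower in Th17 cells.

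Inhibitory receptor genes, which accompany TOX in exhausted cells, had 0 of 3 at 300 past the rule in Th1 cells (median log2 ratio -0.02). In Th17 cells the only one at 300, Ctla4, was 2.34-fold higher in CD30high cells (median log2 ratio of the 4 genes at 100 -0.06). Between the lineages 0 were higher and 2 lower of 3 in Th17 cells among CD30low, and 0 higher and 1 lower of 3 among CD30high cells. Ctla4 was 2.9-fold lower among CD30low cells. Entpd1, the gene of an ATP-degrading ectoenzyme, was 6.64-fold lower among CD30low and 6.63-fold lower among CD30high cells. Of the genes linked to BHLHE40, 0 of 5 at 300 passed in Th1 cells (median log2 ratio -0.27) and 1 of 4 in Th17 cells (median log2 ratio -0.06), the circadian gene Per1, with 271 and 574. Il10, which BHLHE40 is known to repress, had 487 and 522 in Th1 cells and was below 100 on both Th17 arrays (at least 4.87-fold lower among CD30low and 5.22-fold lower among CD30high cells). Of the 5 genes at 300, 1 was lower (Il10) and 1 higher in Th17 cells in each sort. Cd69 was 2.64-fold higher in Th17 cells among CD30low and Arntl 2.46-fold higher among CD30high cells.

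**Figure D3:**
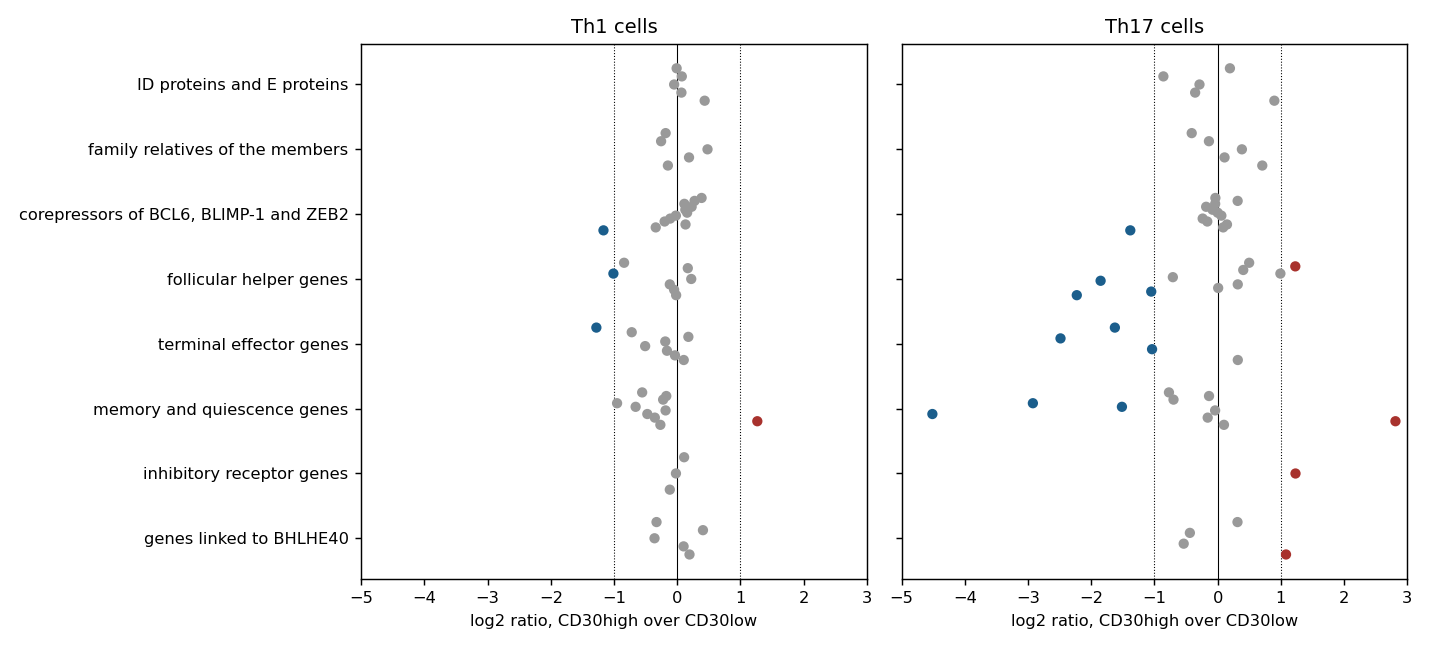
Log2 ratios of CD30high over CD30low signals (x axis) in Th1 (left) and Th17 cells (right) for the genes of 8 lists related to the members (y axis) that reached 300 on at least one of the arrays compared, 1 array per group. Each point is a gene, red at 2-fold higher or more, blue at 2-fold lower or more and grey between; Myb is red in both panels (2.41-fold and 7.03-fold), and Klf2 is the leftmost point in Th17 cells (22.8-fold lower).

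Genes with profiles most like those of the members that passed were taken from 8226 genes at 300 or more on an array, by the root mean square difference of centred log2 signals over the 4 arrays. Nearest to Zeb2 were Nkain1 (difference 0.02), with 529 in CD30high Th17 cells, Slc35d3 (0.05), with 478, and Mcpt8 (0.05), with 470.2. Nearest to Prdm1 were Hpse (0.04), with signals of 768, 839, 265 and 305 in the order of the groups above, Haao (0.08) and Mecom (0.08). Nearest to Id3 were Cd163l1 (0.08), Pgm2l1 (0.08) and Prnp (0.09), the last with 18952, 16986, 7986 and 4121. Dim signals were raised to 100 here too, which makes profiles with dim arrays alike by construction.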

How the data were processed

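RNA from 4 sorted populations was labelled with biotin and hybridized to Affymetrix whole-genome mouse arrays, 1 per group; groups come from the sample titles. The deposited intensity values are linear signals per probe set. Affymetrix Expression Console is named in the submitters' processing notes, GeneChip Operating Software in the methods; version, algorithm and scaling target are not given in the sources used here. With 2% trimmed at each end, mean signals were 496.6 to 497.0 on all arrays, as after scaling to 1 target, which hides a shift of most genes. No detection calls were used. Symbols came from the platform annotation, updated by gene identifier (34741 of 34945 probe sets with 1 symbol matched); 932 had several symbols and 9160 were unnamed here, and all these were left out.

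The brightest probe set stood for a gene, signals below 100 were set to 100, and log2 ratios were taken. The fold rule required 2-fold and 300. Its code was run on simulated signals with larger changes in brighter genes, which does not bear on calls near these limits. No test was run, since each group had 1 array. The members and lists (86 entries in 8 lists, 58 markers in 9; 16 of 144 had no probe set named here) were chosen with earlier results of these data known. Named were the members, 3 nearest profiles per called member, up to 4 genes per list past the rule in a CD30 comparison and up to 3 between lineages, and markers beside results they touch. Ccr7 and genes named without passing were chosen after their values were seen. Alternatives covered scaling, floor, probe sets and limits. Tools were Python 3.11.15, numpy 2.4.6, pandas 2.3.3 and matplotlib 3.10.9. The number of arrays limits the precision.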

Additional observations from a re-analysis of the deposited data

Results flagged for a closer look

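The genes Bcl6, Id3 and Id2 had CD30 ratios of opposite sign in the lineages, each from 1 array per group, and the difference was not tested. For Bcl6 the log2 ratio of CD30high over CD30low signals was -0.20 in Th1 and 0.82 in Th17 cells. For Id3 it was 0.073 in Th1 and -0.86 in Th17 cells. The Th1 values of both lie within the SD between probe sets (0.24). For Id2 it was -0.0094 in Th1 and 0.19 in Th17 cells, both within the SD between probe sets.

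Likewise untested, the log2 ratio of Th17 over Th1 signals had opposite signs in the CD30 sorts for Bcl6, with -0.74 among CD30low and 0.29 among CD30high cells, and for Bhlhe40, with -0.16 and 0.38. The SD between probe sets was 0.30 among CD30low and 0.33 among CD30high cells, so 0.29 for Bcl6 and -0.16 for Bhlhe40 lie within it. These rest on the same 4 arrays as the CD30 ratios.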

How the results depend on the processing

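The count of members past the rule between the CD30 sorts was 0 in Th1 cells under all 8 alternatives. In Th17 cells it was 1 with median centring, quantile normalization, floors of 50 and 200 and a signal limit of 500. It was 0 with the mean of the probe sets, under which Zeb2 stays below 300, 4 with a fold limit of 1.5 and 2 with a signal limit of 100, which adds Tox2. The difference of CD30 ratios between the lineages passed for 0 members with the mean of the probe sets, under which Zeb2 and Bcl6 stay below 300, and for 1 with a signal limit of 500, which drops Bcl6; it stayed at 2 or 3 otherwise. The lineage counts stayed at 2 or 3 throughout, but Zeb2 dropped out of the CD30high count when probe sets were averaged. Prdm1 and Id3 passed, lower in Th17 cells, under all 8. For these 2 genes, however, only median centring and quantile normalization could have changed the call. Each has 1 probe set, signals above 200 on all arrays and Th1 signals above 500, and a lower fold or signal limit cannot remove a call. Of 200 log2 ratios of single members under 5 alternatives, 171 moved by less than the SD between probe sets and 29 by more. Of the called ones 0 reversed. The 29 belonged to Zeb2, Bcl6, Tox and Tox2 under another floor or the mean of the probe sets. Many of the 171 could not move, so their share does not measure robustness. Prdm1, Bhlhe40 and Id3 have 1 probe set and signals above 200, which another floor or the mean of the probe sets leaves unchanged. Another floor also leaves Bcl6 and Id2 unchanged. No paired analysis was possible because the labels give no replicate numbers and each group has 1 array. Signals under 100 limit what can be said of Tox, of Tox2 and of Zeb2 outside CD30high Th17 cells.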
